A study of Mus musculus with 57 samples.

Results

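Single nephron cells of the newborn mouse kidney were compared by their level of Egr1, an immediate early transcription factor. The members were selected on measured values: among the 50 of 57 cells with Pax8 at an RPKM of 5 or more, 16 cells with Egr1 at 50 or more were called Egr1-high and 24 cells with Egr1 below 1 were called Egr1-low. RPKM is the number of reads scaled by gene length and by the mapped reads of the cell, and Pax8 is a transcription factor of the early nephron. The other 10 Pax8 cells, with Egr1 between these limits, entered only the correlations. Every cell, Egr1-high and Egr1-low alike, came from 1 pool of 2 kidneys of Tg(Crym-EGFP)82Gsat mice on postnatal day 4, on a mixed background and of unknown sex. The transgene places EGFP under the control of Crym, and both groups carry it. The kidneys were minced and digested with trypsin at 37C, sorted by fluorescence, captured on a Fluidigm C1 chip and sequenced on 1 lane, and the labels name the renal vesicle as the sampled structure. Cells of 1 pool are not replicates of a condition, so no test was made and all differences are descriptions of these cells.

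Immediate early genes are transcribed within minutes of a stimulus, without new protein synthesis, when ERK or stress kinases act on factors already bound at their promoters. Growth factors, mechanical strain, heat and enzymatic tissue dissociation are known inducers, and the short-lived mRNAs often appear in bursts. In the renal vesicle, where the nephron first becomes epithelial, a proximal side that will give rise to podocytes and a distal side that will join the collecting duct already differ in gene expression.

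Egr1 was 76.3, 162 and 820 RPKM at the lowest, median and highest of the 16 Egr1-high cells, against 0, 0.256 and 0.882 RPKM in the 24 Egr1-low cells, of which 11 were at 0. The rule sets these groups apart, and the 10 cells between them are left out: the nearest cell under the upper limit had 39.0 RPKM and the nearest above the lower limit 1.27 RPKM. The lowest Pax8 kept was 10.7 RPKM and the highest left out 1.99 RPKM. Pax8 itself had a median of 331 RPKM in Egr1-high cells and 249 RPKM in Egr1-low cells, and the Notch ligand Jag1, also a nephron gene, reached an RPKM of 1 in 16 of 16 Egr1-high and 24 of 24 Egr1-low cells. Lhx1 reached it in 12 of 16 Egr1-high and 22 of 24 Egr1-low cells, and Cdh6 in only 4 of 16 Egr1-high and 6 of 24 Egr1-low. Of the genes that the label names beside Egr1, Jun was at an RPKM of 1 or more in 14 of 16 Egr1-high and 16 of 24 Egr1-low cells, and Ier2 in 10 of 16 Egr1-high and 8 of 24 Egr1-low, so neither marks the Egr1-high cells by presence alone.

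The groups had like depth. Estimated mapped reads per cell had a median of 1.58 M in Egr1-high cells (0.79 to 2.29 M) and 1.49 M in Egr1-low cells (1.02 to 2.02 M), and the lowest of the 50 cells had 0.475 M, where M stands for 1e6 reads. A median of 4446.5 genes was at an RPKM of 1 or more in Egr1-high cells (3701 to 5713) and 4220 in Egr1-low cells (3053 to 6502). Across the 50 cells Spearman's rho of Egr1 with the number of detected genes was 0.15. A set of 13 macrophage markers summed to a median of 4.74 RPKM in Egr1-high cells (0 to 190) and 2.63 RPKM in Egr1-low cells (0 to 58.3), and 2 Egr1-high cells and no Egr1-low cell held 2 or more markers at 20 RPKM. Another 3 Egr1-high cells, numbered 2, 10 and 34, had a mean level of a podocyte gene list above that of every other of the 50 cells and are described with those genes. List counts were also taken without these cells.

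Fos and Btg2, the only immediate early genes past the limit used to call a difference, are shown by the 250 bases before their annotated start, because a larger share of Egr1-high than of Egr1-low cells held their transcripts. The sequences are RefSeq's on GRCm38.p6, 5′ to 3′ on the strand of the gene, at chr12:85473640-85473889 (plus strand) for Fos and chr1:134079156-134079405 (minus strand) for Btg2. Capitals mark matches to TGACG, the core of the cyclic AMP response element, to its full form TGACGTCA, to GCGNGGGCG, the letters that EGR proteins are known to bind, and to TATAAA.
Fos: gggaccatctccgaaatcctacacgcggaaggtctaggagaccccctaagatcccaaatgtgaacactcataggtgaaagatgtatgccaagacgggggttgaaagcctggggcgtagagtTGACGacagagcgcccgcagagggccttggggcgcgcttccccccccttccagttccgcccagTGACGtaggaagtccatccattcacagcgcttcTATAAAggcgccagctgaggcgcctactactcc
Btg2: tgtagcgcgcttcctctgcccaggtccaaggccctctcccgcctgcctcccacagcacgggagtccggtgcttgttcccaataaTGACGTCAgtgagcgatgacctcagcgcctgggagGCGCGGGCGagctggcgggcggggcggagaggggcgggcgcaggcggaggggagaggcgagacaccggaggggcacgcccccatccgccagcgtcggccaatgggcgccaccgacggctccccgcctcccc
Counted back from the base before the start, TGACG begins at -129 and -66 and TATAAA at -33 in the Fos window, and TGACGTCA begins at -166 and GCGNGGGCG at -131 in the Btg2 window. Both strands were searched, TGACG lies within TGACGTCA, and no CCGGAA, a longer form of the GGAA core bound by ETS factors, stood in either window. GGAA alone was not searched for, and it does occur in both windows. Of 32851 windows of this length, 17.8% held TGACG, 1.55% TGACGTCA, 4.70% GCGNGGGCG, 12.0% CCGGAA and 12.4% TATAAA. A match is a description of letters and not of binding.

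Several immediate early genes, led by Fos and Btg2, had higher mean levels in Egr1-high cells. The measure was the difference in mean log2(RPKM + 1), Egr1-high minus Egr1-low, on which 2 is a 4-fold ratio, and which understates the difference of low genes. Of 63 genes on 2 immediate early lists 52 were in the table, and 37 passed the filter of a mean RPKM of 1 over the 50 cells and an RPKM of 1 in at least 5 of them. The other 15, among them Atf3, Klf2, Klf4, Ier3 and Socs3, did not. Of the 37, 2 were higher by 2 or more, Fos and Btg2, and none was lower by 2 or more, beside 0.703% of all 9671 genes higher and 0.352% lower. By 1 or more, 12 of the 37 (32.4%) were higher and 1 was lower, beside 8.06% and 6.12% of all genes. The median difference of the 37 was 0.67, against 0.03 over all genes. Of the 37, 26 lay above 0 (70.3%, beside 51.9% of all genes) and 11 below. These shares describe the genes that passed the filter, which some passed only through the Egr1-high cells: 12 of the 37 (32.4%, beside 9.95% of all genes) would not have reached an RPKM of 1 in 5 cells without them, among them Fos, Fosb, Junb, Zfp36 and Dusp1 of the 12 higher by 1 or more. Such genes were counted only because of their detection in Egr1-high cells, so the counts are no support for the list as a whole. Of all genes, 962 passed in this way, and 81 of them were higher by 1 or more. Without the podocyte-gene cells 2, 10 and 34, 7 of 37 were higher and 3 lower by 1 or more, beside 9.45% and 5.28% of all genes, 1 was past 2, and the median was 0.31, against 0.10 over all genes. Without the 2 cells with macrophage markers 12 of 37 were higher by 1 or more, beside 9.69% of all genes. In that setting 2 were past 2, beside 1.00% of all genes.

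**Figure D1:**
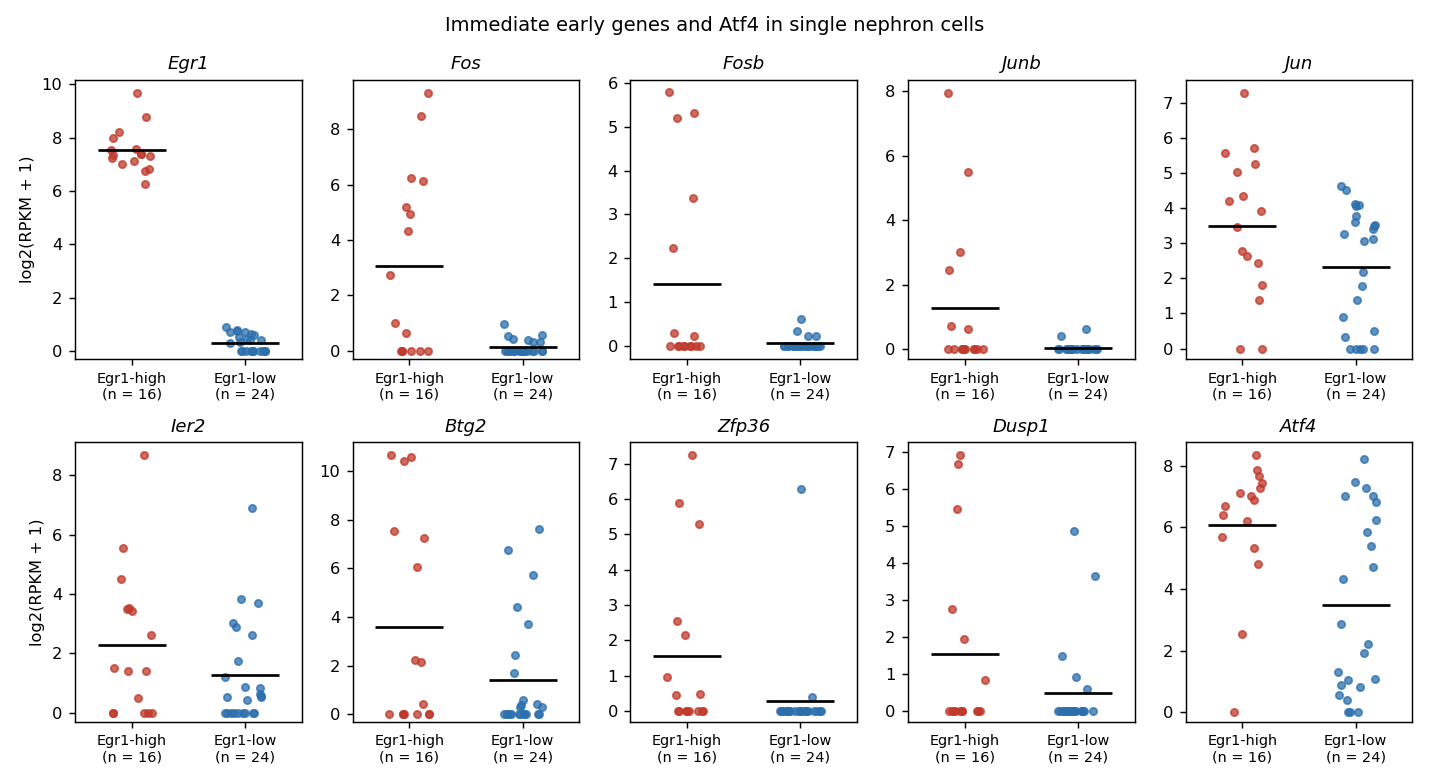
Level of 10 genes in each cell, as log2(RPKM + 1), in 16 Egr1-high cells (red, left) and 24 Egr1-low cells (blue, right). The bar is the mean. Fos, Fosb and Junb were below an RPKM of 1 in every Egr1-low cell, while Jun, Ier2, Btg2 and Atf4 overlapped between the groups.

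Fos, which forms the AP-1 factor with Jun proteins, had the largest difference of the 37 genes. It was at 0, 3.30 and 637 RPKM at the lowest, median and highest of the Egr1-high cells, against 0, 0 and 0.966 RPKM in the Egr1-low cells. No Egr1-low cell reached an RPKM of 1 and 9 of 16 Egr1-high cells did (56.2%, exact 95% interval 29.9% to 80.2%), while for 0 of 24 Egr1-low cells the exact upper limit is 14.2% (12.5% by the limit of 3 counts). On the log2 scale the difference was 2.92, between 2.50 and 3.12 when any 1 cell was left out. It was 2.53 without the podocyte-gene cells. The intervals cover counting of these cells only.

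Among the other AP-1 genes, Fosb and Junb were also below an RPKM of 1 in every Egr1-low cell, while Jun was detected in most cells of both groups. Fosb, a relative of Fos, reached an RPKM of 1 in 5 of 16 Egr1-high and 0 of 24 Egr1-low cells, with a highest value of 54.2 RPKM in Egr1-high and 0.536 RPKM in Egr1-low cells and a difference of 1.34. Junb, a relative of Jun, reached it in 4 of 16 Egr1-high and 0 of 24 Egr1-low cells, with a highest value of 248 RPKM in Egr1-high and 0.546 RPKM in Egr1-low cells and a difference of 1.23. Junb rested on the podocyte-gene cells, since its difference was 0.25 without them, where 1 of 13 Egr1-high cells was at 1 RPKM or more. Fosb stood at 1.27 without them. Jun, at chr4:94715727-94718913 on mm9, had 0, 12.2 and 157 RPKM in Egr1-high cells, against 0, 7.49 and 23.8 RPKM in Egr1-low cells. Most cells of both groups held Jun and the groups overlapped, but 5 of the 16 Egr1-high cells lay above the highest Egr1-low cell. Its difference was 1.17. Within the 16 Egr1-high cells, Spearman's rho was 0.69 between Fos and Jun and 0.69 between Fos and Fosb. These cells share a chip and a lane. Klf6 (0.60), Klf10 (0.31) and Myc (-0.46), also transcription factors, were closer to 0. Klf10 was at -0.54 and Myc at -0.22 without the podocyte-gene cells. Myc was detected in 4 of 16 Egr1-high and 9 of 24 Egr1-low cells.

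Among immediate early products that are not transcription factors, Btg2, an anti-proliferative regulator of mRNA decay, differed most. It had 0, 1.91 and 1585 RPKM in Egr1-high cells, against 0, 0.109 and 196 RPKM in Egr1-low cells, and was detected in 8 of 16 Egr1-high and 7 of 24 Egr1-low. Its difference of 2.15 (1.68 to 2.42 when 1 cell was left out) was 0.54 without the podocyte-gene cells 2, 10 and 34, which held 1370 to 1585 RPKM. Ier2, a nuclear immediate early protein at chr8:87185230-87186751 on mm9, had 0, 1.75 and 407 RPKM in Egr1-high cells against 0, 0.468 and 119 RPKM in Egr1-low cells, a difference of 1.03 that was 0.42 without those cells. The groups overlapped over most of their range in both genes. Zfp36, which destabilises AU-rich mRNAs, was detected in 5 of 16 Egr1-high and 1 of 24 Egr1-low cells with a difference of 1.29, or 0.60 without those cells. Dusp1, a phosphatase of MAP kinases, was detected in 5 of 16 Egr1-high and 3 of 24 Egr1-low cells with a difference of 1.06, or 0.90 without those cells.

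The remaining members higher by 1 or more have other roles. Mcl1, an anti-apoptotic BCL2 relative, differed by 1.45 and Ppp1r15a, which directs dephosphorylation of eIF2alpha, by 1.31. Tob1, an anti-proliferative relative of Btg2, differed by 1.08, and the matricellular protein Cyr61 by 1.04, which were 0.76 and 0.29 without the podocyte-gene cells. Btg1 (0.67, or 0.42 without them) and Midn (0.88) were detected in most cells of both groups. The 1 member lower by more than 1 was Odc1, the rate-limiting enzyme of polyamine synthesis, at -1.99: it was detected in 8 of 16 Egr1-high and 19 of 24 Egr1-low cells. Per cell, 14.5 of the 37 genes were detected at the median of Egr1-high cells (6 to 20) and 11.5 at that of Egr1-low cells (5 to 19). The number followed the detected genes of a cell, with rho 0.48 over 50 cells, and depth was not adjusted for in these counts.

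**Figure D2:**
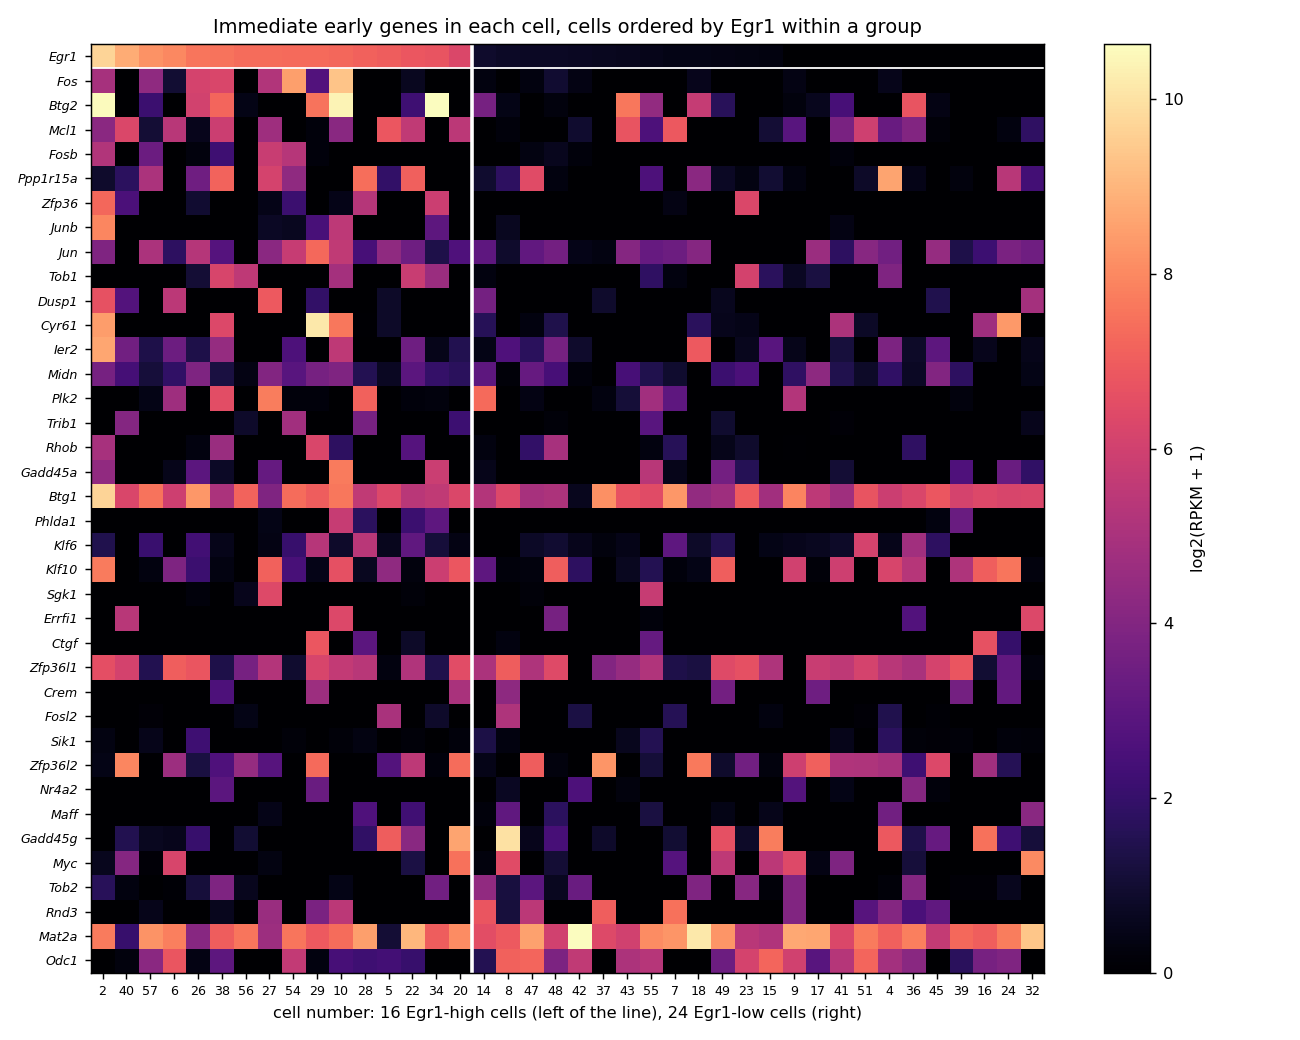
Level of Egr1 and the 37 immediate early genes, as log2(RPKM + 1), in 16 Egr1-high cells (left of the white line) and 24 Egr1-low cells (right), each ordered by Egr1 from high to low, with genes ordered by difference. Fos reached an RPKM of 1 in 9 of 16 Egr1-high cells and Fosb, Junb and Zfp36 in 4 or 5 of 16, and the cell with the highest Egr1, cell 2, holds all of them.

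A list of ERK feedback and target genes, apart from the immediate early lists, was not higher with Egr1. Of 19 feedback and target genes 13 were counted, and none was past 1 in either direction, beside 8.06% of all genes higher and 6.12% lower. Of the 13, 3 lay above 0 (23.1%, beside 51.9% of all genes) and 10 below, and the median was -0.27. Dusp6, a phosphatase that limits ERK, was detected in 7 of 16 Egr1-high and 13 of 24 Egr1-low cells at a difference of -0.63, or -0.19 without the podocyte-gene cells, and Spry4, a receptor tyrosine kinase antagonist, was at -0.96. Spry2, a relative, was at 0.41, or 0.84 without those cells, and was detected in 12 of 16 Egr1-high and 18 of 24 Egr1-low cells. Without the podocyte-gene cells 6 of the 13 lay above 0 (46.2%, beside 55.7% of all genes) and 7 below, and the list's median was -0.01.

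Of growth factor receptors, ligands and the cascade between them, members differed by 1 or more in both directions. Of the receptors 7.14% were higher and 7.14% lower, and of the ligands 9.09% and 9.09%. Of the cascade 17.4% were higher and 13.0% lower, beside 8.06% and 6.12% of all genes. Of 14 receptors counted, Igf2r, the clearance receptor for IGF2, was higher by 1.10 and Fgfr2 lower at -1.10. Of the 14, 7 lay above 0 (50.0%, beside 51.9% of all genes) and 7 below. Of 11 ligands 8 lay above 0 (72.7%, beside 51.9% of all genes), with a median of 0.67, against 0.03 over all genes. Without the podocyte-gene cells 7 of the 11 did (63.6%, beside 55.7%), with a median of 0.36, against 0.10. Among the ligands Bmp7, a survival factor for nephron progenitors, was higher by 1.05, or 0.51 without those cells. The heparin-binding factor Mdk was lower at -1.04, or -0.21 without those cells. Of 23 genes of the RAS and ERK cascade, 1 was past 2: Gab2, a docking adaptor of receptor kinases, with 0, 10.6 and 103 RPKM in Egr1-high cells against 0, 0 and 150 RPKM in Egr1-low cells. It was detected in 11 of 16 Egr1-high and 6 of 24 Egr1-low cells and differed by 2.24. The adaptor Grb2 (1.36), the exchange factor Sos1 (1.50) and the transcription factor Srf (1.13) were also higher, while the kinases Map2k1 (-1.39) and Mapk3 (-1.30) and the coactivator Mkl2 (-1.28) were lower, and the list's median was -0.15. Without the podocyte-gene cells Gab2 was at 2.53 and Grb2 at 0.88.

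Cytoskeletal targets of SRF and its MRTF coactivators lay above 0 more often than not, in 16 of 17 genes (94.1%, beside 51.9% of all genes), with a median of 0.50. Actb, the cytoplasmic actin, had a median of 4157 RPKM in Egr1-high cells and 3147 RPKM in Egr1-low cells. Myl9, a myosin light chain, was at 1.87, the actin crosslinker Flna at 1.16, the tropomyosin Tpm4 at 1.13 and the calponin Cnn2 at 1.04. Zyx, a focal adhesion protein, was the exception at -1.56. Without the podocyte-gene cells the count was again 16 of 17, beside 55.7% of all genes, and the median 0.69, with Cnn2 at 0.40 and Zyx at -0.96. Without the 2 cells with macrophage markers the count was 15 of 17 (88.2%, beside 52.1% of all genes).

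**Figure D3:**
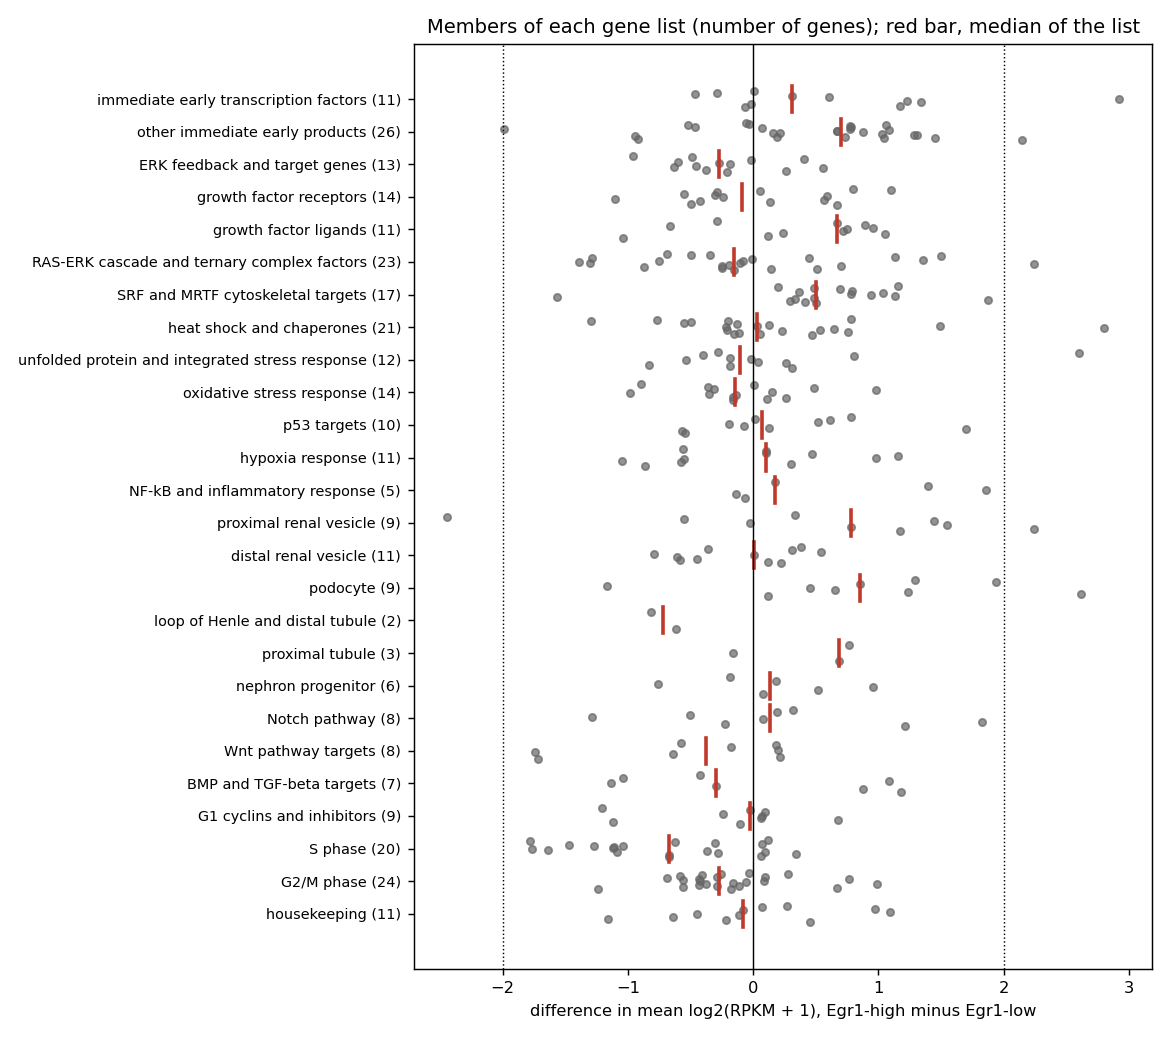
Difference in mean log2(RPKM + 1), Egr1-high minus Egr1-low, for each counted member of each gene list (grey dots), with the list's median (red bar) and limits of 2 (dotted). The medians of the immediate early and SRF lists lie right of 0, that of the S phase list lies left of it, and those of the stress lists lie near 0.

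Stress genes other than the immediate early class had medians near that of all genes, though single members differed. The medians were 0.03 for 21 heat shock genes, -0.10 for 12 genes of the unfolded protein and integrated stress response, -0.15 for 14 oxidative stress genes, 0.07 for 10 p53 targets and 0.10 for 11 hypoxia genes. In the heat shock list Chordc1, an HSP90 cochaperone, was detected in 13 of 16 Egr1-high and 10 of 24 Egr1-low cells and differed by 2.80, and the small heat shock protein Cryab by 1.49, or 0.74 without the podocyte-gene cells. Hspa8, the constitutive HSP70, had a median of 1413 RPKM in Egr1-high cells and 1585 RPKM in Egr1-low cells. Atf4, the transcription factor of the integrated stress response, lies at chr15:80085614-80087971 on mm9. Its values were 0, 109 and 323 RPKM in Egr1-high cells, against 0, 4.95 and 296 RPKM in Egr1-low cells, and its difference was 2.60 (2.45 to 3.00 when 1 cell was left out). The groups overlapped over nearly all of their range, but the median Egr1-high cell was far higher. Ddit3, a target of ATF4, was at -0.18, or 0.12 without the podocyte-gene cells. Of the 5 inflammatory genes counted, Nfkbia, the inhibitor of NF-kB, was detected in 10 of 16 Egr1-high and 8 of 24 Egr1-low cells at 1.85, or 0.91 without the podocyte-gene cells. Trp53inp1, a p53 target, was at 1.70 and the prolyl hydroxylase Egln1 at 1.15.

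Egr1 did not separate the proximal from the distal side of the renal vesicle. In each cell the mean log2(RPKM + 1) of the distal list was subtracted from that of the proximal list. The score was -4.96, 2.39 and 5.60 at the lowest, median and highest of the Egr1-high cells, against -4.17, 1.28 and 4.00 in the Egr1-low cells. It lay above 0 in 11 of 16 Egr1-high and 15 of 24 Egr1-low cells, so both groups held both kinds of cell. The mean was 1.30 ± 3.53 in Egr1-high cells and 0.64 ± 2.49 in Egr1-low cells (SD over 16 and 24 cells), a difference of 0.66 that was -0.22 without the podocyte-gene cells. Over the 50 cells, Egr1 had a rho of 0.06 with the score. With the gene classes of the authors' deposited table, the score averaged 0.57 ± 1.60 in Egr1-high cells and 0.66 ± 1.58 in Egr1-low cells. It lay above 0 in 12 of 16 Egr1-high and 16 of 24 Egr1-low cells. Without the podocyte-gene cells, 8 of 13 Egr1-high cells lay above 0 by the lists and 9 of 13 by the authors' classes. Of 435 proximal genes from that table, 42 (9.66%) were higher and 41 (9.43%) lower by 1 or more, with a median of -0.02. Of 334 distal genes 28 (8.38%) were higher and 19 (5.69%) lower, with a median of 0.09. The shares over all genes were 8.06% higher and 6.12% lower. By 2 or more, 7 of the 435 proximal genes were higher and 3 lower. Of the 334 distal genes 0 were higher and 1 lower, beside 0.703% and 0.352% of all genes. That table places the immediate early genes Jun (fold 11.3), Ppp1r15a (5.68), Btg2 (4.63) and Cyr61 (3.48) in the proximal class. It places Myc (-10.3), Trib1 (-4.62) and Dusp1 (-3.71) in the distal class.

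Proximal genes nevertheless differed in opposite directions. Tmem100, a membrane protein that the authors' deposited table places in the proximal class with a fold of 173, was detected in 8 of 16 Egr1-high and 18 of 24 Egr1-low cells and was at -2.44, the difference of largest size in the list. Wt1, a podocyte transcription factor with a fold of 96.1 in the authors' deposited table, had a median of 252 RPKM in Egr1-high cells and 72.2 RPKM in Egr1-low cells. Its difference was 1.17, or 0.33 without the podocyte-gene cells. Tcf21 (1.44) and Foxc2 (1.55), both transcription factors of the proximal side, were 0.37 and 0.97 without them. Of 11 distal genes none was past 1, beside 8.06% of all genes higher and 6.12% lower. Of the 11, 6 lay above 0 (54.5%, beside 51.9% of all genes). Without the podocyte-gene cells 10 of the 11 lay above 0 (90.9%, beside 55.7% of all genes), with a median of 0.39, and Dll1 was at 1.07. In that setting 6 of 9 proximal genes lay above 0 (66.7%), with a median of 0.21. The distal transcription factors Sox9, Pou3f3 and Lhx1 were at 0.01, 0.22 and -0.61, and at 0.44, 0.54 and 0.30 without those cells.

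**Figure D4:**
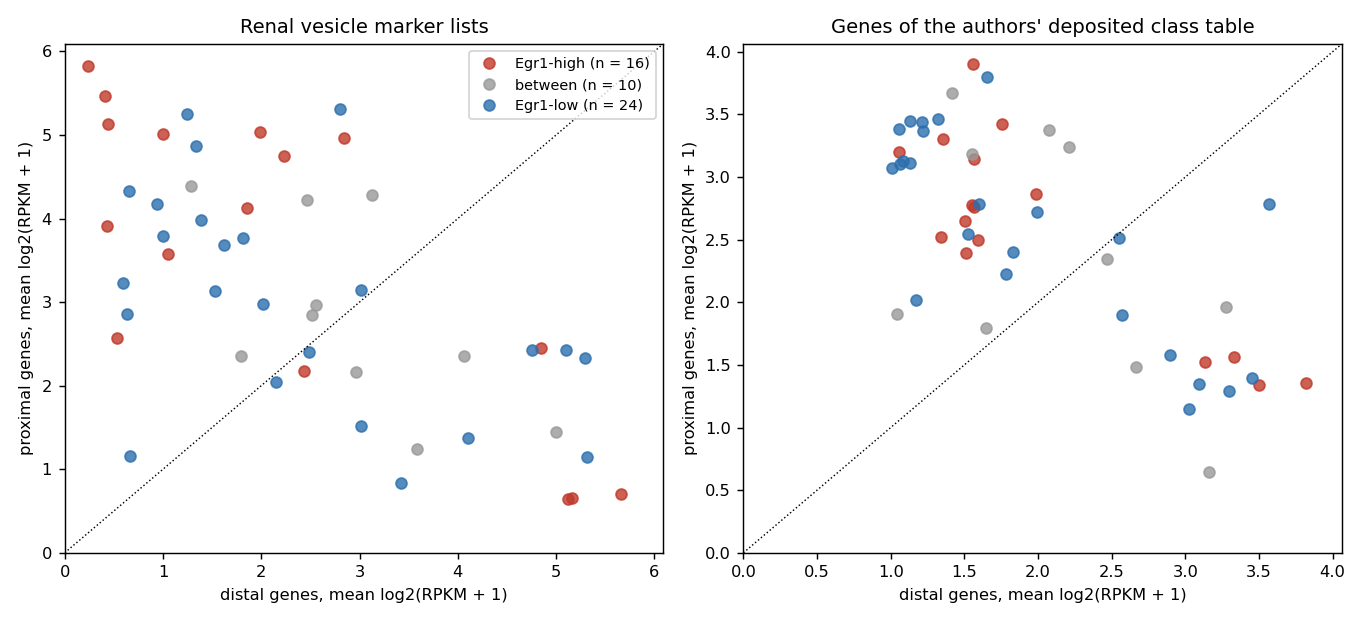
Mean log2(RPKM + 1) of proximal genes against that of distal genes in each of 50 Pax8 cells, for the marker lists (left) and for the genes of the authors' deposited class table (right), with Egr1-high in red, between in grey and Egr1-low in blue. Both Egr1-high and Egr1-low cells lie on either side of the dotted line of equal means.

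Podocyte genes were concentrated in cells 2, 10 and 34, with podocyte list means of 4.56, 4.40 and 4.28, above the 2.46 of the next cell among the 50. All 3 were Egr1-high, and they were singled out after their values were seen. They held Synpo, an actin-binding protein of foot processes, at 142, 77.3 and 56.6 RPKM, a gene at 0 in the other 13 Egr1-high cells and at most 0.109 RPKM in Egr1-low cells. Nphs1, a slit diaphragm protein, was at 27.9 and 24.8 RPKM in cells 2 and 10. Egr1 itself was 820, 151 and 107 RPKM in cells 2, 10 and 34. Their S phase list means of 1.42, 0.88 and 1.41 were among the lowest. Of the 9 podocyte genes counted, 8 lay above 0 in all cells (88.9%, beside 51.9% of all genes), with a median of 0.85. Without those 3 cells 4 lay above 0 (44.4%, beside 55.7% of all genes) and 5 below, with a median of -0.07. By 1 or more, 4 were then higher and 1 lower, beside 9.45% and 5.28% of all genes. The 3 cells were chosen by their mean of this same list, so its fall without them is no separate result. Rasl11a, a RAS-like GTPase, differed by 2.62 in all cells and by 2.40 without them, and Cd2ap, a slit diaphragm adaptor, by 1.94 and 1.61. The lower member was Dach1, at -1.16 in all cells and -1.58 without them.

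Of 20 S phase genes 9 (45.0%, beside 6.12% of all genes) were lower in Egr1-high cells by 1 or more and none higher, with a median of -0.67. Without the podocyte-gene cells, 2 of 20 were lower by 1 or more (10.0%, beside 5.28% of all genes) and the median was -0.11. Uhrf1, which maintains DNA methylation, was at -1.78, and the replicative helicase subunits Mcm2 and Mcm7 at -1.76 and -1.64. Without those cells Uhrf1 was at -0.93, Mcm2 at -1.14 and Mcm7 at -0.53. The list mean per cell was 0.88, 4.32 and 6.31 in Egr1-high cells, against 1.25, 5.13 and 7.08 in Egr1-low cells, so the groups overlapped. The 24 G2/M genes had a median of -0.27, which was 0.29 without those cells.

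**Figure D5:**
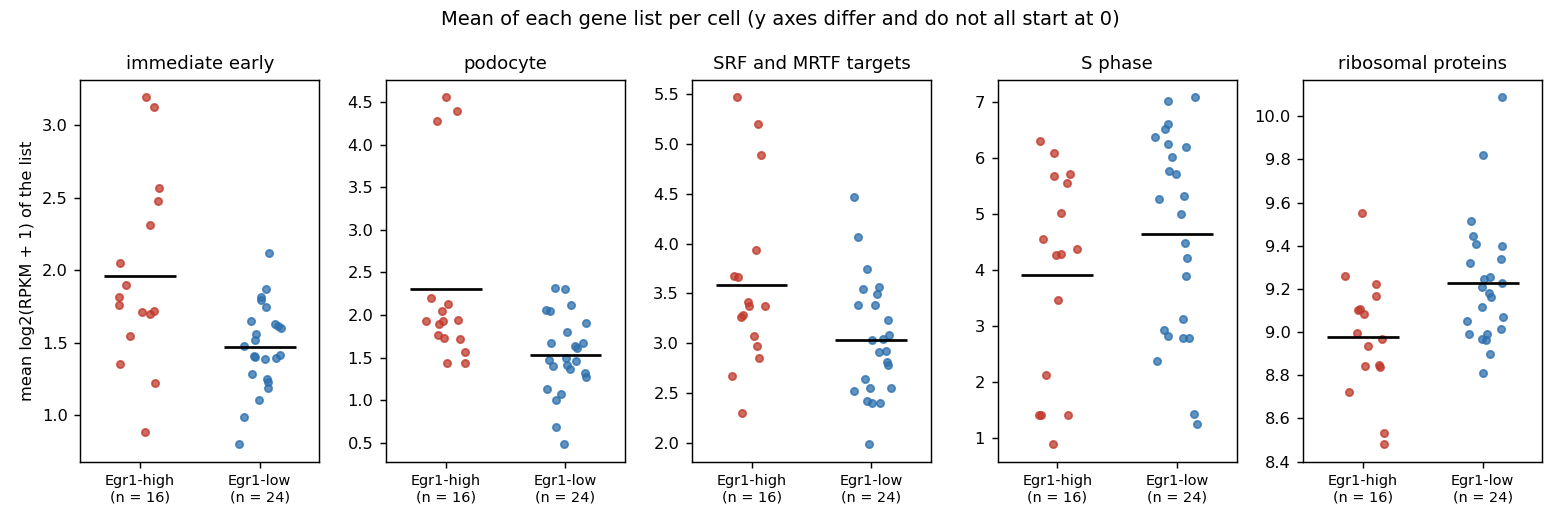
Mean log2(RPKM + 1) of 5 gene lists in each of 16 Egr1-high cells (red, left) and 24 Egr1-low cells (blue, right), where the bar is the mean of the group and the y axes do not all start at 0. The 3 podocyte-gene cells, which were chosen by the podocyte list mean, stand apart in the podocyte panel, and all 5 lists overlap between groups.

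Outside the lists, the largest difference belonged to Tubb6, a beta tubulin, which had 0, 36.2 and 548 RPKM in Egr1-high cells against 0, 0 and 264 RPKM in Egr1-low cells. It was detected in 12 of 16 Egr1-high and 4 of 24 Egr1-low cells and differed by 3.66. Ech1, a peroxisomal and mitochondrial enzyme of fatty acid oxidation, was at 3.12, Idh3g, a subunit of mitochondrial isocitrate dehydrogenase, at 3.04, Fam48a, a component of the SAGA complex, at 2.97, and Vamp8, a SNARE protein, at 2.80. Sdc2, a heparan sulphate proteoglycan, was at 2.64. Of the 15 largest negative differences, Abhd16a and Mrto4, a ribosome assembly factor, were both at -3.08 and Timm8a1, a mitochondrial import chaperone, at -2.69. Mrto4 was detected in 7 of 16 Egr1-high and 21 of 24 Egr1-low cells, and ranges of the groups overlapped in all of these genes.

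The genes whose level across the 50 cells was most like that of Egr1 were Igsf3, an immunoglobulin superfamily member, with a Spearman's rho of 0.54, Fam48a (0.52), Tubb6 (0.50), Chpf, an enzyme of chondroitin synthesis (0.48), Sec24a, a COPII coat protein (0.47), and Fos (0.47). Chpf was detected in 6 of 16 Egr1-high, 0 of 24 Egr1-low and 1 of the 10 cells between. It passed the filter only through the Egr1-high cells and was chosen by its rho with Egr1, so these counts are no separate support. The lowest rho values belonged to the ribosomal proteins Rpl39 (-0.47) and Rps18 (-0.45). As a class, chosen after these values were seen, 70 of 77 ribosomal protein genes (90.9%, beside 48.1% of all genes) lay below 0, with a median of -0.25, and the count was 70 of 77 without the podocyte-gene cells. Their mean per cell was 8.98 ± 0.27 in Egr1-high cells and 9.23 ± 0.29 in Egr1-low cells (SD over 16 and 24 cells). Ribosomal genes have near-identical pseudogene copies, among which reads can be split.

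Signalling genes of neighbouring pathways differed in single members. Wnt4, which drives the epithelial transition of the nephron, was detected in 3 of 16 Egr1-high and 13 of 24 Egr1-low cells and was at -1.74, and the Wnt antagonist Sfrp2 at -1.71, or -0.52 without the podocyte-gene cells. Hey1, a Notch target, had a median of 100 RPKM in Egr1-high cells and 46.5 RPKM in Egr1-low cells, a difference of 1.83, while Heyl was at -1.29. Of the BMP targets Id1 was at 1.18 and Id2 at -1.13, or -0.73 without those cells. Crym, whose regulatory sequence drives the reporter, was detected in 1 of 16 Egr1-high and 5 of 24 Egr1-low cells.

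Markers of other cell types were present in both groups. Stromal markers summed to 0, 68.9 and 499 RPKM at the lowest, median and highest of the Egr1-high cells, against 0.155, 148 and 1218 RPKM in the Egr1-low cells. Ureteric bud and collecting duct markers summed to a median of 8.75 RPKM in Egr1-high cells, with a highest sum of 204, and 10.2 RPKM in Egr1-low cells, with a highest sum of 421. Endothelial markers summed to a median of 0 in each group and at most 44.2 RPKM in Egr1-high and 73.1 RPKM in Egr1-low cells, with Tek at 0 in all Egr1-high cells. The sums overlapped between groups for each of these types, and the part of stromal and ureteric markers in the differences was not tested. Egr1 had a rho of 0.39 with the sum of macrophage markers over the 50 cells. Left out were then the 2 Egr1-high cells that held 2 or more of these markers at 20 RPKM. In that setting 12 of 37 immediate early genes (32.4%) were higher by 1 or more, beside 9.69% of all genes. With all cells the count was also 12, beside 8.06% of all genes. The part of macrophage RNA in the differences was not tested.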

How the data were processed

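The authors deposited RPKM values for 12087 genes in 57 cells, a count of cells above RPKM 3 for each gene, and a smaller table with a signed fold score that sets proximal against distal cells, per the file headers. TopHat 1.4.1, DESeq and mm9 are named in the submitters' processing notes without a role. No deposited value was a read count, so no count model was used, and mapped reads were estimated from ratios between cells of the RPKM values that equal numbers of reads give, scaled with GENCODE transcript lengths. Levels were log2(RPKM + 1), a gene was detected at RPKM 1, and genes were filtered as the report states. Python 3.11.15, pandas 2.3.3, numpy 2.4.6, scipy 1.17.1 and matplotlib 3.10.9 were used, and scripts were tested on simulated data. The libraries mark neither strand nor single molecules, so antisense genes cannot be told apart and intervals cover counting only. Chambers were inspected for single cells per the labels' protocols, and no doublet caller was run. The cells come from 1 pool, so no test was made. The members and gene lists were chosen with earlier results of these data known. Named genes were the 15 largest differences each way, the 10 most and 5 least like Egr1 by rho, and in each list the members past 2 or else the top 2. Other genes were named after their values were seen. Some genes that this rule names are not reported here. Alternatives changed the pseudocount, Egr1 and Pax8 limits, scaling, covariates and cells left out.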

Additional observations from a re-analysis of the deposited data

How the results depend on the processing

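The counts of genes past a difference of 2 (68 higher, 34 lower) moved with the choice of scale, and the cause was not tested. With a pseudocount of 0.1 they were 362 and 213, with 6 immediate early genes higher against 2, and with a pseudocount of 5 they were 5 and 5, with 0. By medians they were 411 and 283, with 1 immediate early gene. At a limit of 1 they were 779 and 592 (12 immediate early genes) and at 3 they were 3 and 3 (0). With Egr1 limits of 20 and 5, 12 genes were lower, and with limits of 100 and 0 the counts were 111 and 158. With all 57 cells 33 genes were higher. Adjusted for detected genes, 58 were lower, and adjusted for the S and G2/M lists 1 immediate early gene was higher. Without the cells with a podocyte list mean of 4 or more, an alternative chosen after seeing the data, 1 immediate early gene was higher, the counts were 72 and 36, and the proximal minus distal difference was -0.22 against 0.66. Leaving out 1 cell at a time gave 68 to 87 genes higher, 33 to 56 lower, 1 to 2 immediate early genes and a score difference of 0.38 to 1.08. Of 97 named genes, the 36 past 2 kept their sign under each alternative. Of the others 7, all with differences of at most 0.61 in size, turned sign under at least 1. The 36 were set apart by their large differences in these same cells, which every alternative used again in whole or part. Their kept signs are therefore no separate support. No paired analysis was possible because every cell comes from 1 pool and each cell is a sample. Cells at RPKM 0 can hold transcripts that this depth did not detect.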
